A study of Mus musculus with 17 samples.

Results

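The comparison was between testes and forebrain of newborn mice, and its members were all 17 RNA-seq libraries of the series, 8 from testes and 9 from forebrain. Libraries were chosen by their organ label alone, so no measured value entered the choice. The pups were described as males of the *Ocn*_GK line on the 129/SvEv background, taken at postnatal day 1 (P1). *Ocn* stands for the osteocalcin genes, which encode a bone-derived hormone, and the *Ocn*-/- pups of this line lack them. The 3 genotypes were WT pups born from WT mothers, *Ocn*+/- pups born from *Ocn*-/- mothers, and *Ocn*-/- pups born from *Ocn*-/- mothers. Testes were represented by 2 WT, 3 *Ocn*+/- and 3 *Ocn*-/- libraries, and forebrain by 3 libraries of each genotype. A figure caption of the study gives 2 WT forebrains rather than 3. Because only WT pups had WT mothers, pup and maternal genotype cannot be told apart between WT and the other pups. Genotype was kept as a covariate in the organ comparison. The sample labels name the brain tissue as hippocampus, whereas the methods of the study describe it as forebrain with the hippocampus in it, and the second name is used here. Each library is read here as a separate animal. The labels do not state this, but figure captions of the study give the sample numbers as mice. If libraries shared an animal or a preparation, the p-values would measure only the spread between them. Whether testes and forebrain came from the same pups is not given, and any difference in how the organs were handled cannot be told apart from the organ.

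A newborn testis holds seminiferous cords, in which Sertoli cells surround quiescent germ cells called prospermatogonia. Around the cords lie smooth muscle-like peritubular cells, and between them stroma, vessels, macrophages and fetal Leydig cells, which make androgens from cholesterol. A newborn forebrain is made up of young neurons that extend processes and build synapses, of radial glia that still divide, and of the first astrocytes and oligodendrocyte precursors. Both organs are rich in alternative isozymes and paralogs, which are related genes that encode slightly different versions of a protein. Such versions are often used by one tissue rather than another. The RNA of a whole organ is a mixture, so fewer cells of a type and less RNA per cell cannot be told apart.

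Library totals were 7302401 to 8289015 counts in testes and 6518151 to 14621584 in forebrain, and these totals set the counting precision of every value. Levels are given as CPM, the count of a gene scaled to a common library total that was adjusted by the trimmed mean of M values (TMM). Forebrain WT replicate 3 stood apart from the rest before any comparison was made. It had the lowest total, and its 10 most abundant genes took 15.9% of the counts, against 5.20 to 6.57% in the other 16 libraries. The ribosomal RNA gene *Rn18s-rs5* stood at 109900 CPM in it and at 781 to 8818 CPM elsewhere. *Xist*, the RNA that silences an X chromosome in females, stood at 2321 CPM in this library against 0 to 2.36 CPM in the other 16, and the Y-linked genes *Ddx3y*, *Kdm5d*, *Uty* and *Eif2s3y* had no count in it, although the pups are described as male. The fit over all genes was therefore repeated without this library.

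Organ identity dominated the data. The first principal component, which separated the organs, held 87.8% of the variance. Between pairs of libraries of different organs the root-mean-square difference of log2 CPM was 2.19 to 2.31, whereas it was 0.528 to 0.822 within testes and 0.45 to 0.72 within forebrain. The edgeR quasi-likelihood test with genotype as a covariate, called 14921 of the 17800 genes tested (83.8%) at an adjusted p (Benjamini-Hochberg) below 0.05, of which 7908 were higher in testes (44.4%) and 7013 in forebrain (39.4%). A call alone therefore says little, and the results below count genes that were called and also differed by more than 2-fold. There were 4938 such genes higher in testes (27.7%) and 4219 higher in forebrain (23.7%), and these percentages are the background for every list that follows. Without forebrain WT replicate 3 the counts were 4895 and 4263. Log2 fold changes are testes minus forebrain throughout, so a positive value means a higher level in testes. Their median over all genes was 0.09, and 5% of genes lay below -4.56 and 5% above 4.09. The share of these calls that was higher in testes was 53.9%, and it was 63.2% when libraries were scaled by their totals alone, a scaling that moved the median of all genes by 0.317.

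**Figure D1:**
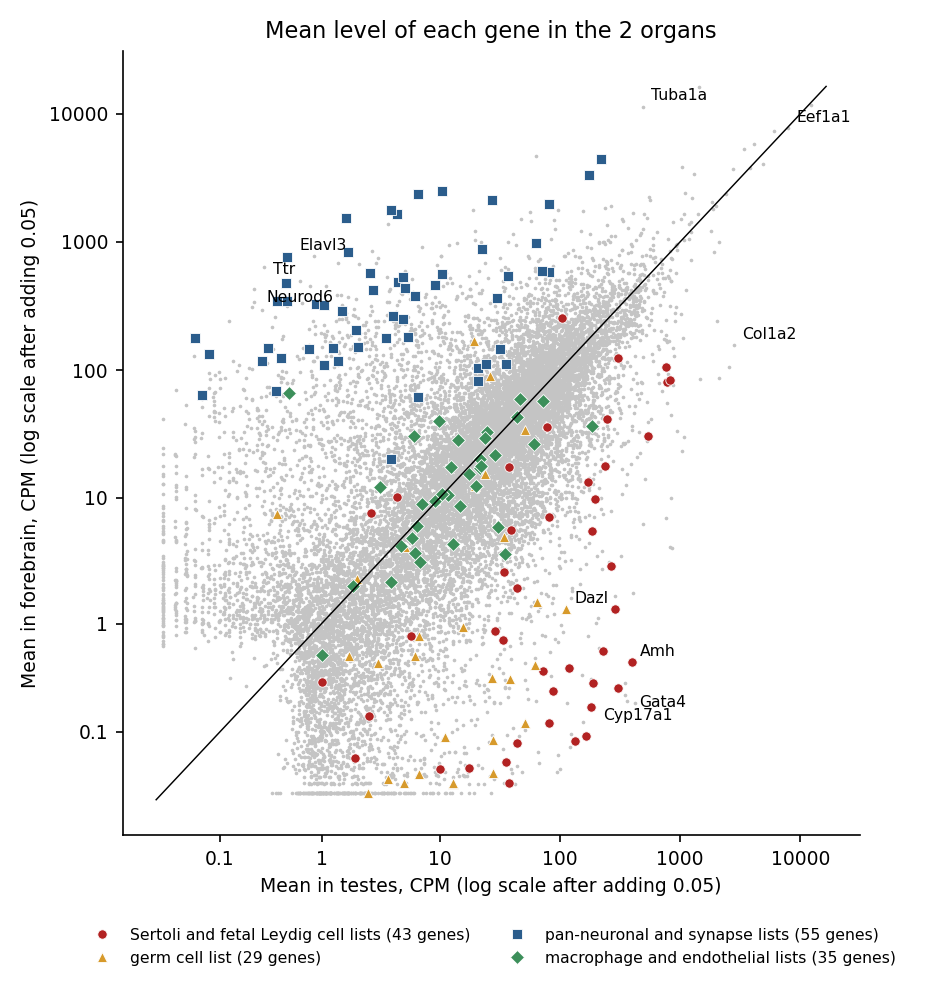
Mean level of each of the 17800 genes in testes (x axis) and forebrain (y axis), both in CPM on a log scale after adding 0.05, with the line of equal levels. Grey points are all genes, circles the Sertoli and fetal Leydig cell lists, triangles the germ cell list, squares the pan-neuronal and synapse lists and diamonds the macrophage and endothelial lists. Most testis cell markers lie far below the line, all 55 neuronal and synaptic markers lie above it, and the macrophage and endothelial markers scatter along it.

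Most of these differences were present in each genotype. Of the genes over 2-fold, 79.8% were called and over 2-fold in the same direction in the WT, the *Ocn*+/- and the *Ocn*-/- pups taken separately, which made 7310 genes (41.1%), 3796 of them higher in testes (21.3%) and 3514 in forebrain (19.7%). For 5 genes (0.0281%) the contrast was called and over 2-fold in opposite directions in a pair of genotypes. The test of whether the organ difference depended on genotype, an interaction in a separate edgeR fit of the 6 group means, called 250 genes (1.40%). In contrast, 2680 genes (15.1%) were held by their 95% confidence interval to a log2 difference within 0.5 of equality, and are called alike here.

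Among protein-coding genes that averaged 50 CPM or more in one of the organs, the 10 largest differences towards testes were those of *Defb19*, *Cst12*, *AU015836*, *Hsd17b3*, *Gata4*, *Dmrt1*, *Tcf21*, *Cst9*, *Akr1cl* and *Hoxd9*. *Defb19*, a beta-defensin gene on chromosome 2 (GRCm39 chr2:152418002-152422258, minus strand), ranged from 63.8 to 128 CPM in testes with a median of 95.1. All 9 forebrain libraries together held 2 counts of it, and the ratio of the levels was 4730 with a 95% counting interval of 1310 to 39000. The ratio was 8710 without forebrain WT replicate 2 and 8190 without forebrain *Ocn*-/- replicate 2, which held 1 count each. *Cst12*, a cystatin gene, had a testes median of 90.1 CPM and 3 forebrain counts, a ratio of 3320 (counting interval 1140 to 16100). *Gata4*, a zinc-finger factor needed to form the gonad (chr14:63436362-63509141, minus strand), had a lowest, median and highest level of 287, 344 and 507 CPM in testes and of 0, 0.167 and 0.508 CPM in forebrain. The organs did not overlap, as was so for 28.4% of all genes in this direction and 27.8% in the other, and the log2 fold change was 10.65 (SE 0.19, adjusted p = 3.3e-23, edgeR). For genes with so few counts in the lower organ, the order of the fitted changes depends on the small count that the fit adds.

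Towards forebrain the genes named by the same rule included *Sst*, *Ttr*, *Neurod2*, *Neurod6*, *Gad2*, *Elavl3*, *Amer3*, *Cacng2* and *Rab3c*. *Sst*, the gene of the interneuron peptide somatostatin, ranged from 98.8 to 177 CPM in forebrain with a median of 121, and the 8 testes libraries held 3 counts of it, a ratio of 3040 (counting interval 1040 to 14700). *Neurod6*, a transcription factor of cortical excitatory neurons (chr6:55654807-55658326, minus strand), had a lowest, median and highest level of 328, 427 and 508 CPM in forebrain and of 0, 0.233 and 0.562 CPM in testes, and its log2 fold change was -10.70 (SE 0.19, adjusted p = 2.98e-23, edgeR). *Ttr*, which encodes the thyroxine carrier transthyretin and is made by choroid plexus, varied more, with 338 to 922 CPM over the forebrain libraries and at most 0.575 CPM in testes.

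**Figure D2:**
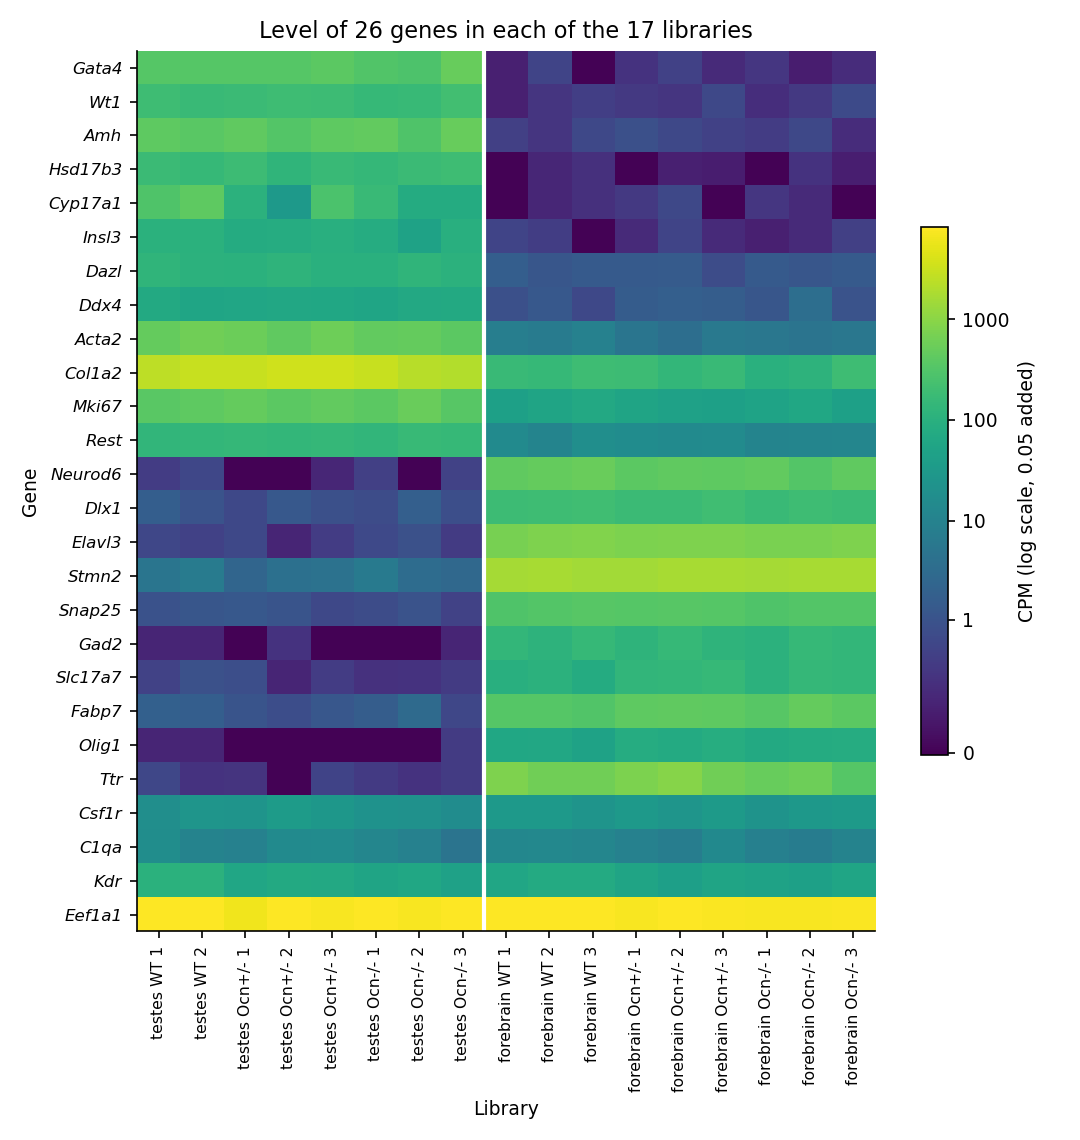
Level of 26 genes (rows) in each of the 17 libraries (columns), with colour as CPM on a log scale after adding 0.05, and the white line between the 8 testes and 9 forebrain libraries. The upper 12 genes are bright in every testes library and the next 10 in every forebrain library, *Csf1r*, *C1qa*, *Kdr* and *Eef1a1* are alike in colour on both sides, and *Cyp17a1* varies most among the testes libraries.

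Ranked by level rather than by difference, the 1609 genes over 8-fold higher in testes (9.04%) were led by matrix genes. *Col1a2*, a chain of type I collagen, stood at a mean of 2789 CPM ± 518 (SD, n = 8) in testes against 156 ± 34.1 (SD, n = 9) in forebrain. *Col3a1*, *Col1a1* and *Sparc*, a collagen-binding protein, followed with means of 2531, 2127 and 2035 CPM in testes against 105, 86.3 and 242 CPM. *H19*, an imprinted non-coding RNA of growing tissues, stood at 1477 ± 278 CPM against 85.3 ± 49.1 CPM, and *Aldh1a1*, an enzyme that makes retinoic acid, at 861 ± 255 against 4.01 ± 1.47 CPM. Among the 1628 genes over 8-fold higher in forebrain (9.15%), the 10 with the highest levels encode the neuronal cytoskeleton and proteins that bind it. *Tuba1a*, an alpha-tubulin of newborn neurons, had 10270, 10950 and 12790 CPM as lowest, median and highest forebrain level, against 404, 494 and 643 CPM in testes, although 83.7% of its 50-base stretches also occur in another gene, mostly *Tuba1c*. *Tubb2b*, a beta-tubulin, *Dpysl3*, a collapsin response mediator protein that binds tubulin, and *Map1b*, a microtubule-associated protein, followed with forebrain means of 4678, 4423 and 3304 CPM and testes means of 63.2, 222 and 177 CPM. *Mapt*, *Dcx*, *Tubb3* and *Map2*, which encode the microtubule proteins tau, doublecortin, beta-III tubulin and MAP2, came next with forebrain means of 2497, 2368, 2116 and 1994 CPM and testes means of 10.4, 6.62, 27.4 and 82.0 CPM.

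Factors that build the gonad distinguished the organs through a subset of their number. Of 20 gonadal transcription factors listed, 19 passed the filter on low counts, and 16 of these were over 2-fold higher in testes and 1 in forebrain, with a median log2 fold change of 3.10. *Wt1*, a zinc-finger factor of the early gonad and kidney, ranged from 154 to 217 CPM in testes and from 0.0846 to 0.667 CPM in forebrain. *Nr5a1*, the nuclear receptor that switches on steroidogenic genes, had a testes median of 192 CPM and a forebrain median of 0.0750 CPM, with a single forebrain library at 1.98 CPM. *Dmrt1*, which maintains the male fate of the gonad, *Tcf21*, a factor of gonadal stroma, and *Gata6* had means of 96.1, 122 and 91.2 CPM in testes and 0.0496, 0.0639 and 0.252 CPM in forebrain.

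Other gonadal factors had clear levels in both organs. *Emx2*, which patterns both the gonad and the cortex, had medians of 10.8 CPM in testes and 13.6 CPM in forebrain, a log2 fold change of -0.38. *Sox9*, the factor that sets Sertoli cell fate and also marks radial glia, had 43.8, 80.7 and 111 CPM in testes and 27.5, 37.0 and 45.2 CPM in forebrain as lowest, median and highest levels, so that the organs overlapped. *Sry*, the testis-determining gene, had no count in any library.

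Sertoli cell genes were higher in testes almost without exception. Of 26 tested, 24 were over 2-fold higher in testes and 2 in forebrain, and the summed level of the list was 3930 to 5890 CPM in testes against 551 to 768 CPM in forebrain. *Amh*, the hormone that makes the Müllerian ducts regress (chr10:80641077-80643482, plus strand), had a lowest, median and highest level of 291, 411 and 487 CPM in testes and of 0.167, 0.446 and 0.837 CPM in forebrain, a log2 fold change of 9.65 (SE 0.16, adjusted p = 2.61e-24, edgeR). *Hsd17b3*, which in the fetal testis makes testosterone from androstenedione, ranged from 125 to 195 CPM and stayed at or below 0.225 CPM in forebrain. *Fshr*, the receptor for follicle-stimulating hormone, had a testes median of 33.6 CPM, and 3 counts in all forebrain libraries, a ratio of 1180 (counting interval 402 to 5700), or 3250 (583 to 128000) without forebrain WT replicate 2, which held 2 of the 3 counts. *Inha* and *Inhbb*, subunits of inhibin, differed less, at 540 against 30.3 CPM and 239 against 17.8 CPM, and *Clu*, a secreted chaperone, stood at 779 against 81.2 CPM.

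A pair of listed Sertoli genes went the other way. *Ptgds*, the prostaglandin D synthase that is also made by meninges and choroid plexus, had a median of 256 CPM in forebrain and 108 CPM in testes, and *Fgf9*, a growth factor of the early gonad and of neurons, 7.11 against 2.43 CPM. For both, the lowest forebrain library lay above the highest testes library.

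Fetal Leydig cell genes were higher in testes in 16 of 17 tested, and several of them varied widely between testes libraries. *Cyp17a1*, which turns progestins into androgens, had 32.5, 138 and 421 CPM as lowest, median and highest testes level, and at most 0.603 CPM in forebrain. *Star*, which carries cholesterol into mitochondria, ranged from 49.95 to 459 CPM in testes and from 8.12 to 18.2 CPM in forebrain, a log2 fold change of 3.51 (SE 0.41). The value of *Star* is uncertain, since 59.4% of its 50-base stretches also occur in *Ash2l*. *Cyp11a1*, which makes pregnenolone from cholesterol, ranged from 121 to 376 CPM and stayed at or below 0.948 CPM in forebrain.

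*Hsd3b1*, the next enzyme of the pathway, was steadier, with 255 to 410 CPM in testes and at most 0.431 CPM in forebrain (log2 fold change 10.02, SE 0.14). *Insl3*, the peptide that guides testis descent, stood at a mean of 87.5 CPM in testes and 0.263 CPM in forebrain, but 91.7% of its 50-base stretches lie in the overlapping gene *Jak3*. *Lhcgr*, the receptor for luteinizing hormone, had a median of 27.5 CPM in testes against 2.07 CPM in forebrain, and the organs did not overlap. *Crhr1*, a receptor for corticotropin-releasing hormone with known roles in brain, was the member that was higher in forebrain, at 10.1 against 4.42 CPM. *Hsd3b6*, an isozyme of *Hsd3b1*, had 1 count in testes and 4 in forebrain and was not tested.

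The letters AAGGTCA are the half-site bound by the receptor that *Nr5a1* encodes, and they were searched on both strands in the 300 bases from 250 before to 50 after the start of each gene. They occurred in 3.66% of the 15337 tested protein-coding genes, in 4.02% of those over 2-fold higher in testes and in 3.44% of those over 2-fold higher in forebrain. They occurred in 2 of 17 fetal Leydig cell genes and 2 of 26 Sertoli cell genes. Other lists varied, with 3 of 29 germ cell genes, 2 of 20 radial glia and astrocyte genes and 0 of 19 gonadal transcription factors. The pair of Leydig and Sertoli genes with the highest levels is shown because they are an endpoint of each cell type. These are the hormone of Sertoli cells and the androgen-making enzyme of Leydig cells. The 67-base stretches are from GRCm39 (*Amh*, chr10:80640954-80641020, plus strand; *Cyp17a1*, chr19:46661732-46661798, minus strand), 5′ to 3′ on the strand of the gene, with the match in capitals.
Amh: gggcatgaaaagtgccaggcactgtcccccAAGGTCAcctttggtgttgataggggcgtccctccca
Cyp17a1: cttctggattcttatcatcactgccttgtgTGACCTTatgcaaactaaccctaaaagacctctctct
The match began 93 bases before the *Amh* start and 157 bases before the *Cyp17a1* start, in the latter on the opposite strand. A match is a description of the letters and not a shown binding site.

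Germ cell genes were mostly higher in testes. Of 33 genes of prospermatogonia, 29 were tested, 21 were over 2-fold higher in testes and 3 in forebrain, and the median log2 fold change was 5.34. *Dazl*, an RNA-binding protein that licenses germ cell development, had 99.2, 112 and 128 CPM as lowest, median and highest testes level and 0.744, 1.39 and 1.69 CPM in forebrain. *Ddx4*, a helicase of germ cells, ranged from 57.9 to 72.3 CPM in testes and from 0.595 to 3.68 CPM in forebrain. *Mael* and *Piwil2*, which act in the piRNA pathway that silences transposons, stood at means of 62.5 and 51.6 CPM in testes and 0.450 and 0.125 CPM in forebrain.

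*Tex19.1*, which restrains transposons in germ cells, had a testes median of 27.1 CPM and 1 forebrain count, a ratio of 2770 (counting interval 497 to 109000). That count was in forebrain WT replicate 3, and without this library *Tex19.1* had no forebrain count and was at least 877-fold higher in testes. *Stra8*, the factor of meiotic entry, had no forebrain count, which makes it at least 82.1-fold higher in testes given a floor of 3 counts over the forebrain libraries. The 3 members higher in forebrain were *Elavl2* at 169 against 19.3 CPM, the receptor tyrosine kinase *Kit* at 90.5 against 26.3 CPM, and the homeobox gene *Lhx8* at 7.46 against 0.398 CPM. All 3 also have known roles in neurons. Meiosis genes were over 2-fold higher in testes in 14 of 15 and in forebrain in 0, with a median of 3.16, and without forebrain WT replicate 3 the count was 13. Their levels were low, as *Sycp1*, a protein of the synaptonemal complex, shows with a median of 20.8 CPM in testes and 2.42 CPM in forebrain.

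Peritubular and stromal genes moved as whole lists. All 15 stromal genes and 14 of 15 peritubular myoid and smooth muscle genes were over 2-fold higher in testes, and no member of either list was higher in forebrain. *Acta2*, smooth muscle actin, had 393, 480 and 600 CPM in testes and 3.62, 5.69 and 9.52 CPM in forebrain as lowest, median and highest levels. *Gli1*, a target of the hedgehog signal that Sertoli cells send out through *Dhh*, ranged from 77.7 to 114 CPM in testes and 3.803 to 5.75 CPM in forebrain, and *Dhh* itself stood at 119 against 0.420 CPM. *Pdgfra*, a receptor of stromal and Leydig progenitors, ranged from 608 to 937 CPM in testes and from 98.2 to 115 CPM in forebrain.

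Genes of cell division were higher in testes as a group. Of 20 tested, 19 were over 2-fold higher in testes and 0 in forebrain, and the median was 2.77. *Mki67*, a marker of cells in cycle, had 363, 406 and 517 CPM in testes and 43.8, 52.8 and 69.6 CPM in forebrain. *Top2a*, which untangles replicated chromosomes, ranged from 389 to 541 CPM against 55.6 to 80.5 CPM. Neither gene overlapped between organs.

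**Figure D3:**
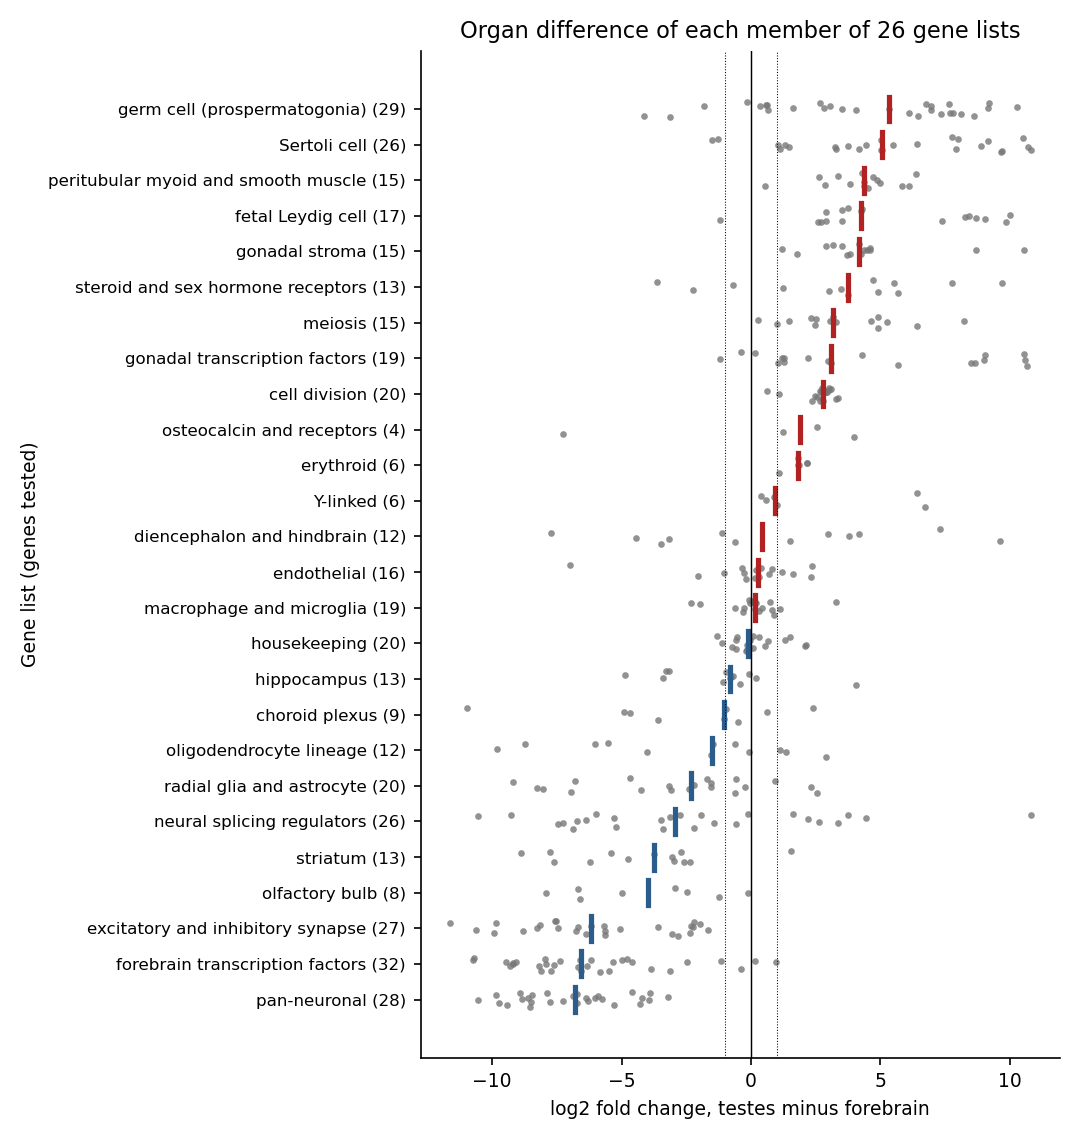
Organ difference of each tested member of 26 gene lists, as log2 fold change of testes minus forebrain (x axis), with one grey point per gene, the number of genes tested in brackets and a bar at the list median. Dotted lines mark 2-fold. Testis cell lists lie to the right, with medians of 3.10 to 5.34, neuronal, synaptic and forebrain factor lists to the left, with medians of -6.80 to -6.20, and macrophage, endothelial and housekeeping lists centre near 0.

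In forebrain, transcription factors of the dorsal and ventral telencephalon were among the largest differences. Of 32 listed factors, all were tested, 29 were over 2-fold higher in forebrain and 0 in testes, with a median of -6.58. Of the cortical factors, *Tbr1*, which specifies deep-layer neurons, ranged from 165 to 285 CPM and stayed at or below 0.689 CPM in testes, and *Bcl11b*, a factor of neurons that project below the cortex and of striatal neurons, ranged from 304 to 493.2 CPM in forebrain and from 6.63 to 11.4 CPM in testes. Of the ventral factors, *Dlx1*, which drives interneuron formation, had means of 186 and 1.09 CPM, and *Dlx2* of 60.1 and 0.196 CPM.

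Of the 32 factors, 3 were below 2-fold, among them *Emx2*, given above, and *Ebf1*, a factor of striatal neurons and of stroma and pericytes elsewhere, with means of 39.5 CPM in forebrain and 73.0 CPM in testes. *Neurog2*, the proneural factor of cortical progenitors, had a forebrain median of 3.00 CPM and no testes count, so it was at least 74.1-fold higher in forebrain. With that gene at this bound the list median was -6.45.

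Every one of 28 pan-neuronal and 27 synaptic genes tested was over 2-fold higher in forebrain, with medians of -6.80 and -6.20, and the same 28 and 27 were counted without forebrain WT replicate 3. *Elavl3*, a neuronal RNA-binding protein, had 701, 780 and 838 CPM in forebrain and 0.113, 0.512 and 0.894 CPM in testes as lowest, median and highest levels (log2 fold change -10.56, SE 0.13). *Stmn2*, a regulator of microtubules in growing axons, ranged from 1527 to 1727 CPM in forebrain and 2.34 to 7.08 CPM in testes. *Snap25*, which fuses synaptic vesicles with the membrane, ranged from 296 to 354 CPM and 0.454 to 1.29 CPM. Transmitter genes of both signs were present, since *Slc17a7* and *Slc17a6*, the vesicular glutamate transporters, had forebrain medians of 135 and 65.0 CPM, and *Gad1* and *Gad2*, which make GABA, medians of 152 and 138 CPM. Their highest testes levels were 0.899, 0.227, 4.38 and 0.225 CPM.

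Glial lists were mixed. Of 20 genes of radial glia and astrocytes, 14 were over 2-fold higher in forebrain and 2 in testes. *Fabp7*, a lipid-binding protein of radial glia, had a forebrain median of 391 CPM and a testes median of 1.39 CPM, and *Slc1a3*, a glutamate transporter, 426 and 22.2 CPM. The 2 genes higher in testes were *Vim*, an intermediate filament of many mesenchymal cells, at 873 against 149 CPM, and *Gja1*, a gap junction protein, at 598 against 118 CPM. Of 12 oligodendrocyte lineage genes, 7 were higher in forebrain and 3 in testes. *Olig1* and *Olig2*, the lineage's factors, had forebrain medians of 74.2 and 30.5 CPM and at most 0.340 CPM in testes, whereas genes higher in testes included *Pdgfra* and *Cspg4*, which stromal and mural cells also express.

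Genes of single brain regions were read beside the brain label. A level above that of testes does not tell one brain region from another, so these counts describe the lists and do not settle which regions were dissected. Of 13 tested hippocampal genes, 5 were over 2-fold higher in forebrain and 1 in testes, with a median of -0.801. *Prox1*, a factor of dentate granule neurons, had 35.2, 46.0 and 49.8 CPM in forebrain and 2.78, 4.35 and 5.48 CPM in testes, whereas *Spink8*, a marker of field CA1 in the adult, had a forebrain median of 0.149 CPM and a testes median of 2.91 CPM. Striatal genes were higher in forebrain in 12 of 13, among them the dopamine receptors *Drd1* and *Drd2* with medians of 22.7 and 15.3 CPM, and olfactory bulb genes in 7 of 8, among them *Th*, the first enzyme of dopamine synthesis, which ranged from 1.16 to 7.07 CPM. Choroid plexus genes were higher in forebrain in 5 of 9 and in testes in 1, the folate receptor *Folr1*. Of 18 genes of diencephalon and hindbrain, 12 were tested, 4 were over 2-fold higher in forebrain and 6 in testes, among the latter *Hoxb3*, which had no count in any forebrain library.

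Macrophages and endothelium occur in both organs. Of 19 macrophage and microglia genes, 2 were over 2-fold higher in testes and 2 in forebrain (10.5% each), with a median of 0.148 against 0.089 over all genes, and their summed level was 152 to 302 CPM in testes and 206 to 271 CPM in forebrain. *C1qa*, a complement gene of tissue macrophages, ranged from 4.76 to 17.1 CPM in testes and from 7.42 to 14.4 CPM in forebrain, and did not pass the test (log2 fold change 0.17, SE 0.17, adjusted p = 0.359, edgeR). *P2ry12* and *Sall1*, which mark microglia, were higher in forebrain, with medians of 11.5 and 29.8 CPM against 2.68 and 6.08 CPM. *Tmem119*, often used as a microglial marker and also known from bone and stromal cells, was higher in testes, with 25.0, 36.6 and 42.0 CPM against 2.58, 3.83 and 4.36 CPM as lowest, median and highest levels.

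Of 16 endothelial genes, 4 were over 2-fold higher in testes (25.0%) and 3 in forebrain (18.8%), with a median of 0.249. These shares are near the 27.7% and 23.7% of all genes. *Kdr*, a receptor for vascular endothelial growth factor, ranged from 46.4 to 111 CPM in testes and from 43.7 to 76.2 CPM in forebrain, and *Cdh5*, the endothelial cadherin, had medians of 176 and 35.3 CPM. The 3 genes higher in forebrain belong to the blood-brain barrier: the thyroxine transporter *Slco1c1* at 66.0 against 0.507 CPM, the tight junction protein *Cldn5* at 39.6 against 9.78 CPM, and the lipid transporter *Mfsd2a* at 28.4 against 14.3 CPM. The glucose transporter *Slc2a1*, another barrier gene of the list, was not over 2-fold, with a log2 fold change of -0.188. Erythroid genes were higher in testes in all 6 tested, with a median of 1.83, but 1 of the 6 did not overlap between organs. *Hbb-bs*, an adult beta-globin, had 309, 738 and 2402 CPM in testes and 172, 252 and 321 CPM in forebrain as lowest, median and highest levels. The share of blood in the tissue was not measured.

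Of 20 housekeeping genes tested, 14 were under 2-fold, 4 were over 2-fold higher in testes and 2 in forebrain, both shares below those of all genes, and the median was -0.11. *Actb*, beta-actin, ranged from 978 to 1269 CPM in testes and from 2102 to 2858 CPM in forebrain, and *Ywhaz*, a 14-3-3 protein, from 400 to 527 and from 1051 to 1207 CPM. *B2m*, the light chain of class I histocompatibility molecules, went the other way, at 82.7 against 19.9 CPM, as did the lysosomal enzyme gene *Gusb*, at 66.0 against 15.1 CPM. *Hprt1*, which salvages purines, ranged from 42.9 to 66.7 CPM in testes and from 56.3 to 67.97 CPM in forebrain (log2 fold change -0.16, SE 0.075, adjusted p = 0.0524, edgeR), and its sign turned when libraries were scaled by totals alone. The alike gene of the nuclear genome with the highest level was *Eef1a1*, an elongation factor, with 6457, 7914 and 9606 CPM in testes and 7149, 7644 and 8806 CPM in forebrain. *Hsp90ab1*, a chaperone, was also alike, at 1893 ± 170 against 1804 ± 87.7 CPM.

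Regulators of neuronal RNA were measured from a list of 26, of which 17 were over 2-fold higher in forebrain and 7 in testes. *Rest* (chr5:77408131-77434284, plus strand), the repressor that silences neuronal genes outside neurons, had 130, 143 and 157 CPM in testes and 10.7, 15.1 and 18.2 CPM in forebrain as lowest, median and highest levels, with no overlap (log2 fold change 3.36, SE 0.092, adjusted p = 3.22e-21, edgeR). *Srrm4* and *Srrm3*, which switch on neuronal microexons, had forebrain medians of 111 and 28.5 CPM and testes medians of 9.96 and 0.702 CPM. *Nova2* and *Celf4*, neuronal splicing factors, had means of 291 and 424 CPM against 2.69 and 2.78 CPM. Among those higher in testes, *Esrp1*, an epithelial splicing factor, had a median of 38.8 CPM and 1 count in forebrain, a ratio of 4010 (counting interval 719 to 158000). The count was in forebrain WT replicate 3, without which *Esrp1* had no forebrain count and was at least 1270-fold higher in testes.

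The repressor encoded by *Rest* binds an element called RE1, and its core letters, CAGCACC followed after any 2 bases by GGACAG, were searched on both strands within 1000 bases of each gene start. They occurred in 38 of 15337 tested protein-coding genes (0.248%). Of the 3579 over 2-fold higher in forebrain, 34 held them (0.95%), of the 4176 over 2-fold higher in testes 0, and of the 7582 others 4 (0.0528%). The 23-base stretches below, from GRCm39 and written in the direction of the element with the match in capitals, are shown because these 8 genes are well-known neuronal genes and the last 2 are genes that hold the letters and were not over 2-fold.
Syp, chrX:7504974-7504996 (plus): gctcCAGCACCGTGGACAGagcc
Celf3, chr3:94385317-94385339 (plus): cttcCAGCACCGGGGACAGctcc
Calb1, chr4:15881289-15881311 (plus): ggagCAGCACCGCGGACAGcgcc
Chga, chr12:102521495-102521517 (plus): gattCAGCACCTCGGACAGcacc
Chgb, chr2:132623712-132623734 (plus): atttCAGCACCCCGGACAGctcc
Grin1, chr2:25209026-25209048 (minus): gcttCAGCACCTCGGACAGcacc
Scn3b, chr9:40181036-40181058 (minus): ggctCAGCACCACGGACAGtagc
Cntnap2, chr6:45036218-45036240 (plus): acttCAGCACCGCGGACAGcagc
Chka, chr19:3901115-3901137 (plus): tcctCAGCACCACGGACAGggaa
Lca5, chr9:83323339-83323361 (plus): agccCAGCACCCAGGACAGaccg
*Syp*, a protein of synaptic vesicles, ranged from 297 to 426 CPM in forebrain and from 0.782 to 3.56 CPM in testes. *Celf3*, a splicing factor, and *Scn3b*, a sodium channel subunit, had means of 240 and 403 CPM in forebrain and 1.34 and 4.76 CPM in testes. *Chga* and *Chgb*, granins of secretory vesicles, *Calb1*, a calcium buffer, *Grin1*, the obligate NMDA receptor subunit, and *Cntnap2*, an axonal adhesion protein, had log2 fold changes of -5.71, -7.31, -8.28, -7.54 and -7.73. *Chka*, a choline kinase, was higher in testes at 122.7 against 62.2 CPM, and *Lca5*, a ciliary gene, did not pass the test at 20.5 against 22.9 CPM. No binding was measured, and genes without these letters are not thereby without an element.

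Paralogs were compared per transcript length, as TPM, so that members of a family can be set against each other. TPM is the count divided by the length of the longest annotated transcript and scaled to a common total. The longest transcript need not be the one expressed, so levels, shares and leading members within a family depend on this choice. Of 52 families, 48 had at least 2 tested members, and in 25 of these the member with the highest TPM differed between organs. In 17 of the 25 the leading member of each organ was ahead of the other by more than the larger of their SDs in both organs. Some families, such as the BAF, ribosomal protein and protein kinase A sets, pool different subunits, so that a change of leading member there is not one between paralogs. Separately, in 17 families some members were over 2-fold higher in testes while others were over 2-fold higher in forebrain. Counts of members with near-identical copies are uncertain where the counting could split them.

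In energy metabolism, *Hk2*, the inducible hexokinase, led in testes with 59.2 TPM ± 9.73 (SD, n = 8) against 2.40 ± 0.671 (SD, n = 9) in forebrain, and *Hk1*, the hexokinase bound to mitochondria in brain, made up 96.8% of the family's TPM in forebrain, at 192 ± 18.8 against 54.2 ± 8.34 TPM. The levels of both genes in testes differed by less than their SD. *Pfkp*, the platelet-type phosphofructokinase, stood at 106 TPM in forebrain and differed by a log2 fold change of -3.60, whereas *Pfkl*, the liver type, stood at 27.8 and 36.9 TPM. Of the enolases, *Eno2*, the neuronal form, stood at 111 TPM in forebrain against 8.18 in testes, and *Eno3*, the muscle form, at 2.20 against 8.99 TPM. The beta subunits of the sodium pump were led by *Atp1b2* in testes (360 TPM) and by *Atp1b1* in forebrain (463 TPM).

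The cytoskeleton differed as widely. *Tubb3* stood at 1976 TPM ± 266 in forebrain and 30.6 ± 9.10 in testes, and *Tubb6*, a broadly expressed beta-tubulin, at 8.84 and 88.8 TPM, although *Tubb5* led the family in both organs. *Tuba1a* made up 91.7% of alpha-tubulin TPM in forebrain and *Tuba1b* 36.8% in testes, where *Tuba1a* was close to it with 36.4%. *Cdh2*, the neural cadherin, stood at 261 TPM in forebrain and 51.7 in testes, and *Cdh3*, the placental cadherin, at 1.09 and 99.1 TPM. *Gja1* led the connexins in both organs, while *Gjd2*, which forms electrical synapses, stood at 25.5 TPM in forebrain and had no testes count.

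Among nuclear proteins, some paired subunits of the neural BAF chromatin complex had opposite organ differences. *Actl6a*, the subunit of dividing progenitors, stood at 90.6 TPM in testes and 24.3 in forebrain, and *Actl6b*, its partner in neurons after division, at 0.0973 and 89.2 TPM. *Ss18* and *Ss18l1* stood at 79.4 and 9.67 TPM in testes and at 20.2 and 110 TPM in forebrain. *Dpf2* and *Dpf1* stood at 97.3 and 10.4 TPM in testes and at 49.3 and 106 TPM in forebrain, and the difference of *Dpf2* was below 2-fold (log2 fold change 0.71). The ATPase paralogs *Smarca4* and *Smarca2* were both higher in forebrain, at 153.1 and 109.9 TPM against 88.1 and 76.8 TPM. *Ptbp1*, which represses neuronal exons, and *Ptbp2*, which takes its place in young neurons, stood at 506 and 53.4 TPM in testes and at 69.0 and 123.2 TPM in forebrain. *Lin28a*, an RNA-binding protein of germ and stem cells, stood at 16.2 TPM in testes, with 3 forebrain counts in all (ratio 529, counting interval 181 to 2560), whereas its paralog *Lin28b* stood at 4.17 and 4.62 TPM. Of the 3 *Lin28a* counts 2 were in forebrain WT replicate 3, and without it the ratio was 1510 (counting interval 270 to 59500).

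Members of housekeeping complexes also had organ-bound copies. *Eef1a2*, the elongation factor of neurons and muscle, stood at 42.0 TPM in forebrain and 0.226 in testes, next to the alike *Eef1a1*. Its TPM rests on a longest transcript of 13742 bases, against 3218 for *Eef1a1*, so the levels of these paralogs compare poorly. *Rpl10l*, a retrocopy of a ribosomal protein gene used by germ cells, had no forebrain count and 3.37 to 7.96 CPM in testes, which makes it at least 188-fold higher there. *Cyct*, the testis cytochrome c, and *Cox8c*, a testis cytochrome oxidase subunit, had no forebrain count either and were at least 64.1- and 32.8-fold higher in testes, at medians of 1.96 and 0.932 CPM.

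**Figure D4:**
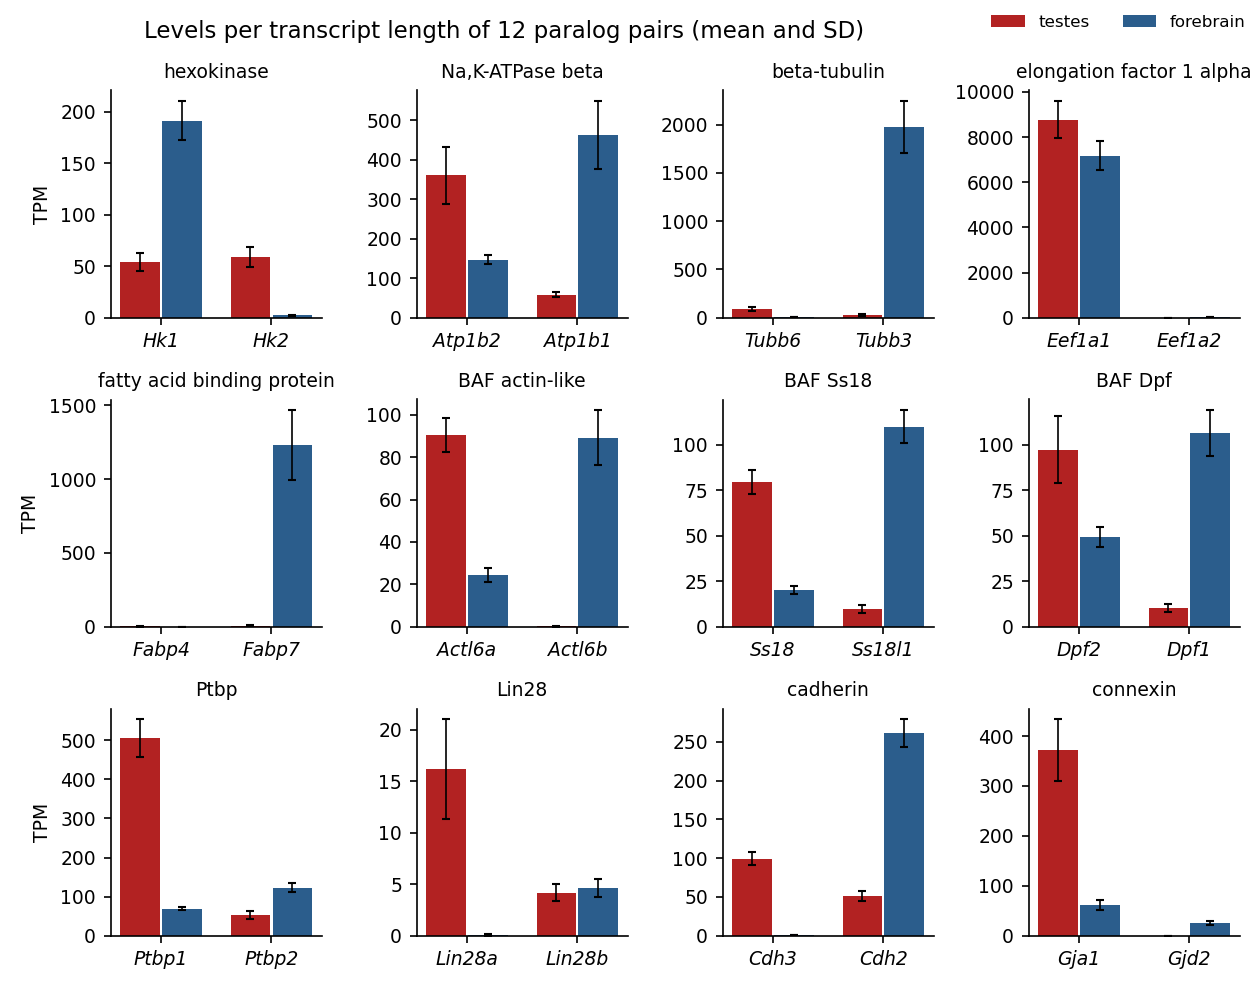
Mean TPM in testes (red) and forebrain (blue) of 12 pairs of paralogs, 1 panel per family and linear axes from 0, with error bars of 1 SD over 8 testes and 9 forebrain libraries. In the hexokinase, sodium pump, BAF and *Ptbp* panels the gene with the taller bar in testes is the one with the shorter bar in forebrain, by a margin within the SD for hexokinases in testes, whereas *Eef1a1* and *Gja1* lead in both.

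Families sharing a symbol were counted next. Of 39 *Hox* genes, which pattern the trunk, 27 were tested, and their summed level was 219 to 376 CPM in testes and 0.178 to 0.775 CPM in forebrain. At such levels they passed the filter on low counts through testes alone, which fixed their direction, and 9 of them had no forebrain count. *Hoxd9* ranged from 55.0 to 84.3 CPM in testes and *Hoxc8* had a mean of 19.3 CPM there with no forebrain count, at least 641-fold. The same limit holds for *Rhox* genes, of which 6 of 32 were tested, at a sum of 44.0 to 66.1 CPM in testes and 0 to 0.380 CPM in forebrain. It holds also for most of the 6 *Gata* genes, higher in testes, and for most of the 5 *Zic* genes and the 4 of 7 *NeuroD* and neurogenin genes tested, higher in forebrain. Larger families of transcription factors were mixed. Of 17 *Sox* genes 5 were over 2-fold higher in testes (29.4%) and 9 in forebrain (52.9%). For 11 POU genes the counts were 3 (27.3%) and 7 (63.6%), and for 28 *Fox* genes 9 (32.1%) and 10 (35.7%). The testes shares of these families were near the 27.7% of all genes. Of 368 *Zfp* zinc finger genes 78 were higher in testes (21.2%) and 50 in forebrain (13.6%), both below the shares of all genes. The *Dlx* family divided, with *Dlx1*, *Dlx2*, *Dlx5* and *Dlx6* higher in forebrain and *Dlx3* and *Dlx4*, at 4.38 and 2.13 CPM, higher in testes. Apart from *Dlx1*, these genes averaged at most 0.263 CPM in the lower organ. The filter on low counts therefore fixed their direction too.

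Of matrix families, 32 of 42 collagen, 9 of 11 laminin and 12 of 19 integrin genes were over 2-fold higher in testes, against 2, 0 and 0 in forebrain. *Lamb1* and *Lama2*, chains of basement membrane laminins, stood at 703 and 436 CPM in testes and 68.1 and 20.8 CPM in forebrain. Of 18 glutathione S-transferases, 13 were higher in testes and 0 in forebrain, led by *Gstm2* at 823 against 4.11 CPM and *Gstm1* at 780 against 55.6 CPM. Cytochrome P450 genes were higher in testes in 15 of 26 and in forebrain in 3.

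Ion channels and transmitter receptors leaned to forebrain. Of 75 potassium channel genes, 43 were over 2-fold higher in forebrain and 13 in testes, and of 23 calcium channel genes 18 and 1. Of 14 sodium channel genes 8 were over 2-fold higher in forebrain and 4 in testes (28.6%), the latter near the 27.7% of all genes. GABA-A receptor subunits were higher in forebrain in 13 of 14, ionotropic glutamate receptors in 16 of 18 and metabotropic glutamate receptors in 7 of 7. The metabotropic receptors summed to 4.14 to 8.22 CPM in testes. At such levels they passed the filter on low counts mainly through forebrain, which largely fixed their direction. Contactins and related adhesion molecules were higher in forebrain in 11 of 13, such as *Cntn2*, an axonal contactin, at 451 against 0.792 CPM. Of 21 beta protocadherins, 16 were over 2-fold higher in forebrain and 0 in testes, with a median log2 fold change of -1.28. All 14 alpha and all 22 gamma protocadherins were higher in forebrain, with medians of -7.22 and -2.34. The alpha median was -7.15 with the 4 members without a testes count at their bounds. The alpha members summed to 2.38 to 5.17 CPM in testes. Most of them passed the filter on low counts through forebrain alone, which fixed their direction. Members of each of these 2 clusters share their constant exons, and how their counts were divided between members is uncertain.

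Cytosolic ribosomal protein genes differed less, with 7 of 80 over 2-fold in testes and 0 in forebrain and a median of 0.657. Of 13 mitochondrially encoded proteins, 1 was over 2-fold higher in testes (2 without forebrain WT replicate 3) and 2 in forebrain, with a median of 0.055.

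Genes present in one organ and absent from counts in the other were few. Of 14012 genes at 1 CPM or more in every testes library, 57 had no count in any forebrain library, and 46 of these were protein-coding. Of 13923 genes at 1 CPM or more in every forebrain library, 34 had no testes count, 12 of them protein-coding. Led by level, these were *Mageb4*, a cancer-testis antigen, with a mean of 26.7 ± 5.02 CPM in testes (at least 884-fold), and *Gjd2* in forebrain with 24.7 ± 3.29 CPM (at least 582-fold) after the protocadherin *Pcdha6*. Of 18 tested genes on chromosome Y, 12 (66.7%) were over 2-fold higher in testes, and 11 (61.1%) without forebrain WT replicate 3, which had no count of several of them. Among them were *Uba1y* and *Usp9y*, copies of ubiquitin enzymes used in the male germ line. Their means were 34.7 and 9.55 CPM in testes and 0.281 and 0.0868 CPM in forebrain. At such levels they passed the filter on low counts through testes, which fixed their direction. In contrast, *Ddx3y*, which is broadly expressed, had 88.5 to 130 CPM in testes and 0 to 72.6 CPM in forebrain. The 0 was forebrain WT replicate 3.

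Genes higher in forebrain were longer. The median genomic span of protein-coding genes, introns included, was 34740 bases for those over 2-fold higher in forebrain, 26974 for those over 2-fold higher in testes and 25012 for the others. Among the 964 genes that span at least 200000 bases, 52.2% were over 2-fold higher in forebrain and 17.2% in testes. When genes were ranked by span and divided into 10 bins of equal size, the bin of the longest genes had 46.5% higher in forebrain, and each of the other bins at most 25.3%. Span was compared over genes, which are not independent replicates, so no test was made.

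**Figure D5:**
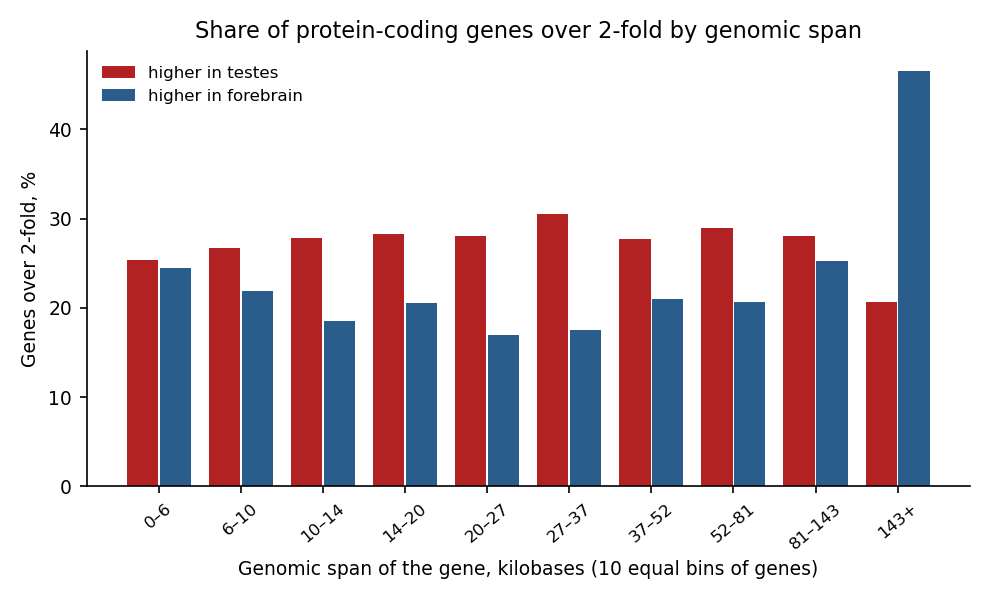
Percentage of protein-coding genes over 2-fold higher in testes (red) and in forebrain (blue) in 10 equal bins of genes by genomic span, in kilobases, with a linear axis from 0. The blue bar rises above the red bar in the bin of the longest genes alone, at 46.5% against 20.7%.

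The study asked how osteocalcin acts in organs that use different receptors for it, so the receptors were read last. *Gpr158* (chr2:21372344-21835728, plus strand), a receptor for osteocalcin in brain, had 15.0, 20.9 and 27.3 CPM in forebrain as lowest, median and highest level, and 0, 0.114 and 0.337 CPM in testes (log2 fold change -7.25, SE 0.25, adjusted p = 1.78e-19, edgeR). *Gpr37* (chr6:25665877-25690728, minus strand), a further receptor for it in brain, was higher in testes, with 49.0, 65.7 and 91.8 CPM against 7.68, 11.7 and 14.9 CPM, and the organs did not overlap (log2 fold change 2.56, SE 0.11, adjusted p = 2.05e-17, edgeR). *Gprc6a*, the receptor named for testes, had 5 counts over all testes libraries and 14 over all forebrain libraries and did not pass the filter on low counts, so its level could not be compared at this depth. Of the osteocalcin genes, *Bglap* had 2 counts in testes and 13 in forebrain and *Bglap2* none in either, and *Bglap3*, a related gene, stood at 1.16 CPM in testes and 0.0535 CPM in forebrain. *Ggcx*, the carboxylase that modifies osteocalcin, stood at 27.7 ± 2.09 CPM against 12.2 ± 2.82 CPM.

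Receptors for steroid and sex hormones were mostly higher in testes, with 10 of 13 over 2-fold there and 2 in forebrain. *Esr1*, an oestrogen receptor, had a median of 45.4 CPM in testes and 3.97 CPM in forebrain. In the same order, *Amhr2*, the receptor for anti-Müllerian hormone, had medians of 51.4 and 0.250 CPM, and *Prlr*, the prolactin receptor, of 86.4 and 1.88 CPM. *Nr3c1*, the glucocorticoid receptor, differed least among those past 2-fold, with medians of 71.7 and 31.0 CPM and no overlap.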

How the data were processed

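Poly-T selected mRNA was sequenced from 8 testes and 9 forebrain samples, and the authors deposited 1 table of expected counts per gene for all 17 libraries. Per the study's methods and the submitters' processing notes, reads were checked with FastQC, trimmed with Trim Galore 0.6.6, aligned with STAR 2.7.8a to GRCm39 and counted with RSEM 1.3.3. The annotation release and the strandedness of counting are not given in the sources used here, so reads of overlapping or antisense genes cannot be told apart, and RSEM divides reads between near-identical copies. The table lists 55359 genes, 32846 of them with a count, and 9625 held a value that was not whole.

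Expected counts were rounded and tested with edgeR 4.0.16 (R 4.3.3, limma 3.58.1): TMM factors, the filterByExpr filter by organ and genotype, which left 17800 genes, and a robust quasi-likelihood fit with genotype and organ. The test was two-sided and p-values were Benjamini-Hochberg adjusted over all genes tested. Genes over 2-fold had an adjusted p under 0.05 and an absolute log2 fold change above 1. Organ differences within each genotype and the interaction came from a fit of 6 group means. For a gene with no count in 1 organ the bound uses a floor of 3 counts over that organ, and for 1 to 3 counts an exact Poisson interval at 95% is given, both for counting error only. The fitted fold change of such a gene depends on the prior count and is no bound. TPM was computed from the longest transcript of GENCODE vM39, which matched 54749 identifiers and missed 610, with at most 0.102% of a library's counts. The effective lengths of RSEM were not used here. A stretch of 50 bases was called shared when it also occurs in a transcript of another gene. Sequences were read from the GRCm39 assembly around the start of each gene's canonical transcript.

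Genes are named if among the 10 highest levels over 8-fold higher in an organ, the 10 largest differences of protein-coding genes with at least 50 CPM in an organ, the leading or contrary members of the lists and families, the osteocalcin genes and receptors, the highest alike genes, and the highest members of a symbol family. Genes named in the account of forebrain WT replicate 3, the genes with an RE1 match and the *Dlx* members were named after their values were seen. Some genes that this rule names are not reported here. The comparison, the lists and the families were chosen with earlier results of these data known. The code was tested on simulated data. Alternatives were other scalings, other count filters, no covariate, a replicate block, thinning to equal totals, glmTreat, DESeq2 1.42.0 and leaving out each library.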

Additional observations from a re-analysis of the deposited data

Results flagged for a closer look

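The organ difference of 7 named genes depended on genotype by the interaction term of edgeR's 6-group fit. *Aldh1a1* had a log2 fold change of 8.83 among WT pups, of 7.01 among *Ocn*+/- pups and of 7.56 among *Ocn*-/- pups (adjusted p = 0.00665). In the same order, *Sox9* had 0.352, 1.22 and 1.39 (adjusted p = 0.0412), and *Chka* 0.522, 0.983 and 1.36 (adjusted p = 0.0322). *Drd1* had -4.08, -7.93 and -7.86 (adjusted p = 0.0302), and its highest testes level, 1.35 CPM, was in WT replicate 2 against at most 0.345 CPM in the other testes libraries. *Atp1b1* had -2.78, -3.45 and -3.39 (adjusted p = 0.0343), *Hk1* -1.66, -2.20 and -2.25 (adjusted p = 0.0343), and *Hk2* 3.86, 4.41 and 4.92 (adjusted p = 0.0470). The WT groups hold 2 testes libraries and forebrain WT replicate 3, whose part in these differences was not tested.

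A single library stood far from the rest of its organ in 37 of 366 groups of 1 gene in 1 organ (10.1%), and 13 of the 37 were forebrain WT replicate 3. A library was taken as far when its gap to the nearest other library, divided by the range of the organ, passed Dixon's critical value at 95%. Chance gives about 1 in 20 of these for normally distributed values, a rate that cannot be assumed for genes with single counts near 0. In that library *Xist* stood at 2321 CPM and *Rn18s-rs5* at 109900 CPM, and *Ddx3y*, *Eif2s3y*, *Kdm5d* and *Uty* stood at 0 CPM against at least 50.3, 52.3, 24.1 and 12.2 CPM in the other forebrain libraries. It was also highest for *Lhcgr* at 5.55 CPM, *Bcl11b* at 493.2 CPM, *Lamb1* at 81.1 CPM, *Lin28a* at 0.397 CPM, and *Esrp1* and *Tex19.1* at 0.198 CPM each, and lowest for *Actl6b* at 76.3 CPM.

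In other forebrain libraries, *Ocn*+/- replicate 1 was highest for *Nr5a1* at 1.98 CPM, *Mael* at 1.06 CPM and *Usp9y* at 0.609 CPM. *Ocn*+/- replicate 2 was highest for *Cyp17a1* at 0.603 CPM, *Ocn*-/- replicate 2 for *Ddx4* at 3.67 CPM, *Ocn*-/- replicate 3 for *Cldn5* at 51.8 CPM, WT replicate 2 for *Fshr* at 0.254 CPM and WT replicate 1 for *Lca5* at 29.8 CPM, while *Ocn*-/- replicate 1 was lowest for *Eno2* at 113 CPM.

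Among testes libraries, *Ocn*-/- replicate 2 was highest for *Top2a* at 541 CPM and *Sycp1* at 34.0 CPM and lowest for *Insl3* at 50.1 CPM and *Crhr1* at 1.79 CPM. WT replicate 1 was highest for *Hbb-bs* at 2402 CPM, *Cntn2* at 2.07 CPM and *Amer3* at 0.115 CPM, and WT replicate 2 was lowest for *Ash2l* at 43.8 CPM. *Ocn*-/- replicate 3 was highest for *Inha* at 742 CPM and *Olig1* at 0.340 CPM, and *Ocn*-/- replicate 1 for *Olig2* at 0.316 CPM. *Ocn*+/- replicate 2 was highest for *Esrp1* at 54.5 CPM and *Dlx6* at 0.225 CPM, and *Ocn*+/- replicate 3 for *Th* at 0.603 CPM.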

How the results depend on the processing

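With at least 10 counts required in every library, 2468 genes were over 2-fold higher in testes, 2452 in forebrain, and 4165 the same way in all 3 genotypes, since fewer genes were tested. The glmTreat test against a 2-fold difference called 7978 genes, by its construction. Leaving out each library gave 14733 to 15148 genes called, 4859 to 5187 over 2-fold higher in testes, 4204 to 4407 in forebrain, 7084 to 7268 the same way in all genotypes and 2569 to 2665 alike. DESeq2 called 14928 genes. Scaling moved direction most: 63.2% of genes over 2-fold were higher in testes with totals alone and 58.3% with upper quartile scaling, which moved the median of all genes by 0.317 and 0.147. Under these scalings the housekeeping median turned from -0.11 to 0.21 and 0.04, and *Tuba1b* turned to 0.28 with totals alone. *Xist*, with -5.21 over all libraries, lay between -5.99 and 2.45 as libraries were left out, turned to 2.45 without forebrain WT replicate 3 and to 2.49 with the replicate block. Of the 26 list medians no other changed sign. Same-numbered testes and forebrain libraries deviated together only weakly, with correlations of 0.0101 to 0.0997. Different organs of the same pup need not deviate together, so these values cannot decide whether libraries share animals. A replicate block gave 14773 genes called, 4922 over 2-fold higher in testes, 4245 in forebrain and 2617 alike. Of 176 named genes called, 16 lost the call under some alternative and 2 of all 188 changed direction across the threshold. Genes with few counts in 1 organ are limited by depth, and counting intervals there span over 10-fold.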
